A study of Homo sapiens with 15 samples.

Results

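DAF is a form of the Ewing sarcoma fusion oncoprotein EWS/FLI in which tyrosines of the EWS domain are changed to alanine, and the genes it still changed were read from the comparison of DAF with EWS/FLI-depleted (iEF) A673 cells. That comparison rests on 6 of the 15 RNA-seq libraries of the experiment, 3 DAF and 3 iEF, and covered 28793 genes, those with a mean of 1 or more counts over the libraries. All cells received an shRNA by retrovirus on day 1 and a second retrovirus on day 5. The shRNA was against EWS/FLI in iEF, WT-EF, Δ22 and DAF cells, and the second virus carried no cDNA in iEF, wild-type EWS/FLI in WT-EF, EWS/FLI without the EWS domain in Δ22, and the tyrosine mutant in DAF. The iLuc cells carried an shRNA against luciferase and an empty vector, and so kept endogenous EWS/FLI (endo-EF). Double selection in puromycin (2 μg/mL) and hygromycin (400 μg/mL) ran from day 6 to day 16. The DAF cDNA carries a FLAG tag, its mutated tyrosines lie in the degenerate hexapeptide repeats of the EWS domain, and a stretch of the domain was left intact. All libraries come from 1 cell line. In the study's scheme each replicate is its own knockdown and rescue, while the labels only number the replicates, and the p-values measure the spread between these samples.

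EWS/FLI joins the low-complexity N-terminal domain of EWS to the ETS-type DNA-binding domain of FLI. The fusion binds single GGAA sites as ETS factors do, and also binds tandem GGAA repeats (microsatellites), at which it turns on genes that ETS factors otherwise leave silent. It is also known to lower many genes of mesenchymal cells. Tyrosines of the EWS domain take part in its self-association and in the recruitment of coactivators such as the BAF chromatin remodelling complex.

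The targeted gene was read first. FLI1 reads, which cover endogenous EWS/FLI and the cDNA together, stood at 12.9, 15.5 and 15.3 CPM (counts scaled to the library size) in iEF and at 22.1, 23.6 and 27.3 CPM in DAF, and the groups did not overlap. The log2 fold change was 0.74 ± 0.10 (SE, 3 libraries against 3), with an adjusted p of 0.000335 by the quasi-likelihood test of edgeR, with p-values adjusted by the Benjamini-Hochberg method, as for each adjusted p given here. EWSR1, whose unfused allele is expressed in all libraries, had 320, 308 and 340 CPM in iEF and 291, 293 and 321 CPM in DAF, and did not pass the test (log2 fold change -0.10 ± 0.07, adjusted p = 0.422). FLI1 was higher in DAF than in WT-EF (log2 0.47 ± 0.10, adjusted p = 0.00264), so DAF values below WT-EF stood beside a higher FLI1 read level, and the part of cDNA level in any difference was not tested. Of the Ewing sarcoma markers, NR0B1, BCL11B, STEAP1, PRKCB and NKX2-2 were present in every library, whereas CD99 had at most 3 counts in any. CD99 lies in the pseudoautosomal region, whose sequence is on both X and Y, so reads that match both may not have been counted, and its low counts are not read as absence. Of the markers of other cell types, CD3E, CDH1, KRT5 and ALB had at most 6 counts in any library. The others were low but not absent: PTPRC of blood cells had 7 to 31 counts, CD14 of monocytes up to 110, EPCAM of epithelium 3 to 33, and CDH5 and VWF of endothelium up to 21 and 22.

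DAF raised 1440 genes (5.00% of the genes tested) and lowered 1783 (6.19%) at an adjusted p under 0.05. Past a 2-fold change as well, 772 were higher (2.68%) and 439 were lower (1.52%), by the point estimate. A test against a 2-fold change (glmTreat) called 178 higher and 46 lower. The counts past 2-fold were 486 and 510 higher without DAF or iEF replicate 3, and 280 lower without DAF replicate 2 or 3. The median level of the raised genes was 5.31 CPM in iEF and 12.2 CPM in DAF, beside 0.745 and 0.832 CPM over all genes tested, with a median log2 fold change of 1.09, and 53.6% of them passed 2-fold. Lowered genes had a median of 40.1 CPM in iEF and 25.7 CPM in DAF, with a median log2 fold change of -0.63, and 24.6% passed 2-fold. Protein-coding genes made up 84.1% of the raised genes, 89.2% of the lowered genes and 55.9% of all genes tested.

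The size of the change differed between replicate sets (the libraries with the same replicate number). The genes were called from these libraries, so the values describe size and not agreement. The median log2 ratio of DAF over iEF (0.5 CPM added) across the raised genes was 0.56 in set 1, 0.76 in set 2 and 0.86 in set 3, and across the lowered genes -0.54, -0.53 and -0.66. The number of calls leaned on single libraries. Raised genes numbered 847 without DAF replicate 2, 755 without DAF replicate 3, 942 without iEF replicate 1 and 875 without iEF replicate 3. Lowered genes numbered 1056, 861 and 896 without DAF replicate 1, 2 or 3, and 1046 and 1065 without iEF replicate 1 or 3.

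Tandem GGAA repeats lay near a larger share of the raised genes than of the lowered genes or of all genes tested. The motif GGAA was searched on both strands (GGAA or TTCC) of GRCh37, the build the counts were made on, within 5 kb of each annotated gene start, and the longest uninterrupted run was kept. Of the 1419 raised genes with a position, 129 (9.09%) had a run of 4 or more, and of the 756 raised past 2-fold, 91 did (12%). The share was 3.3% of 1726 lowered genes (57 genes) and 3.6% of all 27879 genes with a position. Runs of 8 or more lay near 5.5% of the raised genes, 8.33% of those raised past 2-fold, 0.695% of the lowered genes and 1.27% of all genes. Within protein-coding genes the shares for 4 or more were 8.59% of the raised, 3.21% of the lowered and 3.64% of all. A match is a description of the reference sequence, and neither binding nor the length of the repeats in A673 was measured here.

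**Figure D1:**
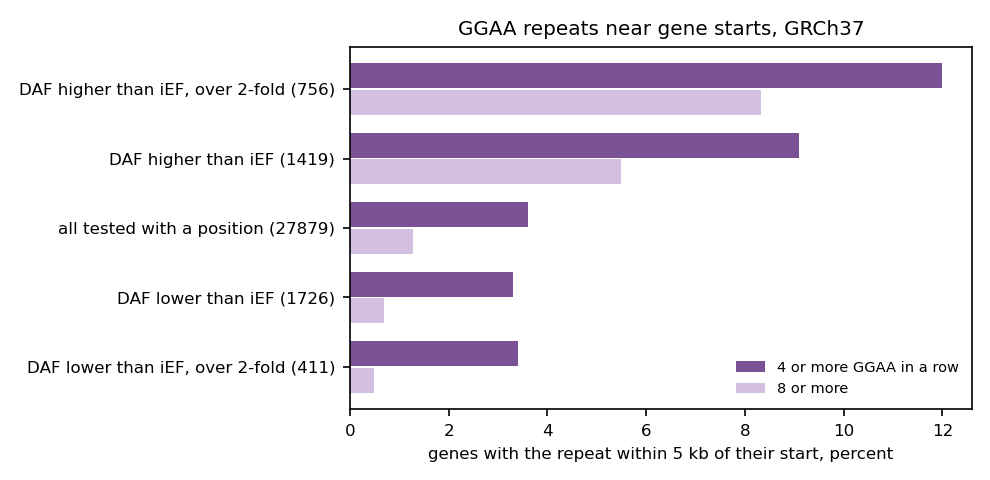
Percent of genes (x axis) with a run of 4 or more (dark bars) or 8 or more (light bars) GGAA within 5 kb of the annotated gene start, for genes raised or lowered by DAF and for all tested genes with a position. The number of genes in each class is in parentheses, and the bars of raised genes are the longest, at 12% and 8.33% for those past 2-fold.

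The repeats near 5 raised genes are printed: ISM2 is among the genes with the largest increase, NR0B1, GSTM4 and FCGRT are EWS/FLI targets described for their repeats, and CACNA1I is a raised channel gene. Capitals mark the uninterrupted GGAA run, read 5′ to 3′ on the strand where it reads GGAA, with 15 bases of the reference on each side.
ISM2 (chr14:77964098-77964191, plus strand): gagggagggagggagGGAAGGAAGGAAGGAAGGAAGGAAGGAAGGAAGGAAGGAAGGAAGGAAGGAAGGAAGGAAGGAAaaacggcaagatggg
FCGRT (chr19:50014749-50014826, plus strand): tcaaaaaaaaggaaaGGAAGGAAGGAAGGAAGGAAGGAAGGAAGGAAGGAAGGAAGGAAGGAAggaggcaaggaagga
NR0B1 (chrX:30328860-30328933, minus strand): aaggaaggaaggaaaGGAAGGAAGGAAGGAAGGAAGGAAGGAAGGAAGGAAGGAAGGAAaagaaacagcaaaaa
GSTM4 (chr1:110196876-110196945, plus strand): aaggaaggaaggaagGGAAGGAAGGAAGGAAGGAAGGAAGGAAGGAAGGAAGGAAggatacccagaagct
CACNA1I (chr22:39966239-39966304, minus strand): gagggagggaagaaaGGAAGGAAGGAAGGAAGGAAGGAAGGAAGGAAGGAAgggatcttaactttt
The runs hold 16, 12, 11, 10 and 9 GGAA. The NR0B1 run lies 1389 bases and the GSTM4 run 1811 bases upstream of the annotated start, and the FCGRT run 4714 bases downstream of it.

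Known EWS/FLI-activated target genes rose in part. Of 27 in the list, all tested, 15 were higher in DAF than in iEF (55.6%), 1, PHF19, was lower (3.7%), and 11 did not pass the test. Over all genes tested 5.00% were higher and 6.19% lower, and the median log2 fold change was 0.92 in the list beside 0.0. Against the same iEF libraries, WT-EF raised 24 and lowered 1 of the 27, beside 3704 and 4898 of all 28793 genes. PHF19 was higher in DAF than in WT-EF, so of iEF, DAF and WT-EF it was lowest in WT-EF. FCGRT, the neonatal Fc receptor, had 6.67, 10.5 and 4.54 CPM in iEF and 34.6, 74.7 and 77.1 CPM in DAF (log2 3.06 ± 0.27, adjusted p = 1.33e-05), with every DAF library above every iEF library. Against WT-EF, at 58.4, 71.6 and 67.5 CPM, DAF differed by -0.15 ± 0.27 (adjusted p = 0.721). PRKCB, a protein kinase C, rose from 19.2, 30.8 and 18.5 CPM to 112, 222 and 220 CPM (log2 2.99 ± 0.27, adjusted p = 1.45e-05). IGF1, a growth factor that signals through the IGF1 receptor, had 0.972, 2.7 and 1.22 CPM in iEF and 14.2, 30.2 and 28.2 CPM in DAF (log2 3.89 ± 0.38, adjusted p = 2.92e-05), below the 61.1 to 86 CPM of WT-EF (log2 -1.58, adjusted p = 0.00176). NPY1R, a neuropeptide Y receptor, rose by 2.92 ± 0.29 on the log2 scale (adjusted p = 2.92e-05) and was close to WT-EF (difference 0.02, adjusted p = 0.966).

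NR0B1, an orphan nuclear receptor switched on in Ewing sarcoma, had 3.94, 8.67 and 4.51 CPM in iEF and 15.7, 26.1 and 44.4 CPM in DAF, where each library lay above all iEF libraries (log2 2.26 ± 0.37, adjusted p = 0.00143). In Δ22 it had 3.6, 9.78 and 18.7 CPM, and the direct test of DAF against Δ22 gave a log2 difference of 1.49 with an adjusted p of 0.061. GSTM4, a mu-class glutathione transferase, rose from 11.5, 14.7 and 10.2 CPM to 17.9, 37.8 and 32.7 CPM (log2 1.25 ± 0.22, adjusted p = 0.00189). It stood above Δ22 (log2 1.70, adjusted p = 0.00112) and below WT-EF (log2 -0.81, adjusted p = 0.0092). Of the 5 mu-class genes tested, 3 were higher (60%, beside 5.00% of all genes tested), GSTM3 and GSTM2 being the others. GSTM2 lost its call without any single one of DAF replicates 1, 2 and 3 and iEF replicates 1 and 3, with adjusted p between 0.0637 and 0.13, and as a close copy of its neighbours its reads could be shared among them.

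Other activated targets did not pass the test. NKX2-2, a homeobox factor needed for Ewing cell transformation, had 0.946, 1.01 and 0.873 CPM in iEF and 0.738, 1.27 and 0.771 CPM in DAF, so the groups overlapped (log2 -0.03 ± 0.27, adjusted p = 0.972). WT-EF had 2.22, 2.14 and 2.69 CPM and was higher than DAF in the direct test (log2 -1.35, adjusted p = 0.000994). SOX2, a stem cell factor, had 45.3, 49.8 and 60.6 CPM in DAF against 106 to 136 CPM in WT-EF (log2 -1.23, adjusted p = 0.000118) and 45.2 to 63.6 CPM in iEF (adjusted p = 0.897). GLI1, the Hedgehog pathway factor, was at 0.184, 0.438 and 0.145 CPM in iEF and 0.105, 0.976 and 0.402 CPM in DAF (log2 0.93 ± 0.54, adjusted p = 0.344), and at 1.5, 2.99 and 4.37 CPM in WT-EF (DAF against WT-EF log2 -2.61, adjusted p = 0.000352). The posterior HOXD genes HOXD10, HOXD11 and HOXD13 did not pass the test against iEF (adjusted p = 0.703, 0.279 and 0.876), and each was lower in DAF than in WT-EF. Over the whole list of activated targets, 19 of 27 were lower in DAF than in WT-EF and PHF19 was higher, beside 12.4% lower (3573 genes) and 16.1% higher (4628 genes) of all genes tested. Against Δ22, 8 of the 27 were higher and none was lower in this test, beside 0.948% (273 genes) and 0.379% (109 genes) of all. These counts depended on the fit: in the 6 DAF and Δ22 libraries alone 15 of the 27 were higher and 2 lower, beside 1411 and 1333 of all genes, with no filter on low counts 15 and 0, beside 663 and 551, and with no replicate block 5 and 0, beside 147 and 30.

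**Figure D2:**
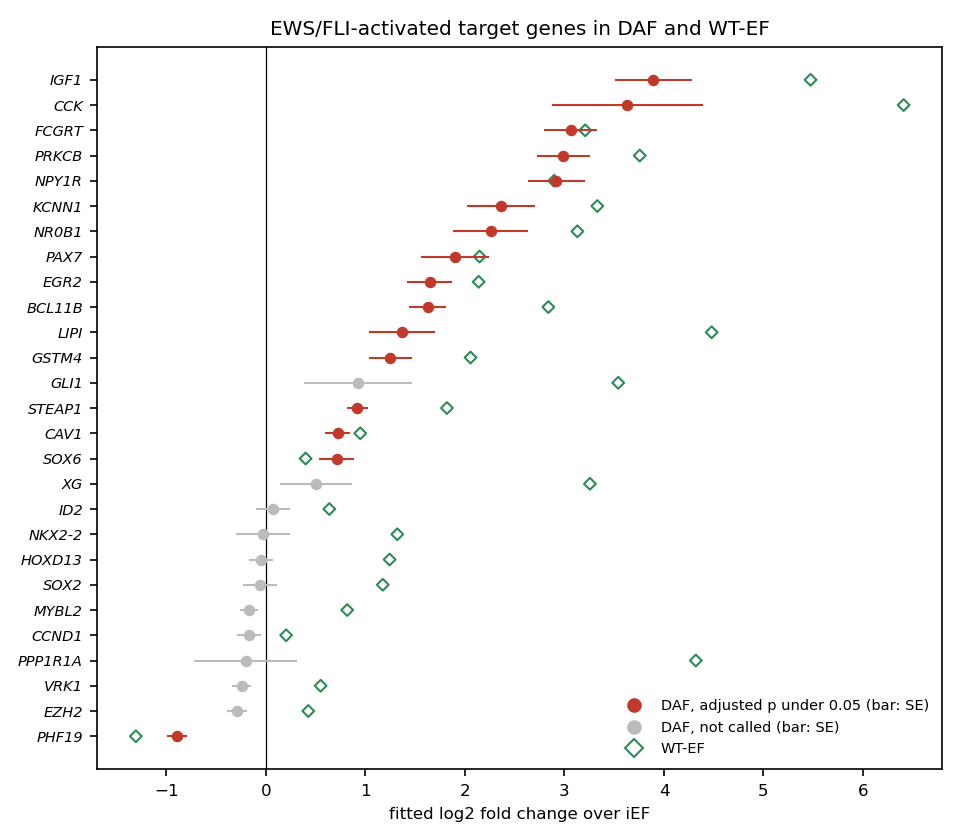
Fitted log2 fold change over iEF (x axis) of the 27 activated target genes in DAF (circles, SE as bars, red where the adjusted p was under 0.05) and in WT-EF (open diamonds). The 15 raised genes run from SOX6 to IGF1, NKX2-2, SOX2 and HOXD13 sit near 0, and both constructs share the iEF libraries, so the columns are not independent.

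Of the known EWS/FLI-repressed target genes, those called lower in DAF varied with the libraries in the fit. Of 10 tested, 2 were lower (20%, SPRY1 and IGFBP3), 2 were higher (20%, IGFBP5 and CDKN1A) and 6 did not pass the test. Over all genes tested 6.19% were lower and 5.00% higher. The median log2 fold change of the 10 genes was -0.20. The number lower was 5 without replicate 3 of all conditions, with no filter on low counts or in the 6 libraries alone, 1 without DAF replicate 1, iEF replicate 1 or iEF replicate 3 or with no replicate block, and 0 without DAF replicate 2. The summed level of the 10 genes, to which IGFBP3 gave the most in iEF, was 11007, 7633 and 7512 CPM in iEF and 7825, 5119 and 5544 CPM in DAF. WT-EF lowered all 10 against the same iEF libraries (median -2.29), beside 4898 of all 28793 genes. In the direct test all 10 were higher in DAF than in WT-EF, beside 16.1% of all genes. Against iEF, Δ22 raised 2 and lowered 1 of the 10 (median -0.17), beside 136 and 239 of all genes. Between DAF and Δ22 none of the 10 passed the test in the fit over all libraries (median log2 difference -0.13). Of all genes 273 were higher and 109 lower there. In the 6 DAF and Δ22 libraries alone, 2 were higher and 4 lower in DAF, beside 1411 and 1333 of all genes. With no filter on low counts 1 was higher and 4 lower, beside 663 and 551. IGFBP3, which binds insulin-like growth factors outside the cell, had 7640, 4800 and 4870 CPM in iEF, 3770, 2170 and 2700 CPM in DAF and 257, 185 and 73.6 CPM in WT-EF. Its log2 change in DAF was -1.0 (adjusted p = 0.0164), and it missed the threshold without DAF replicate 1 or 2 (adjusted p = 0.072 and 0.104), without iEF replicate 1 or 3 (0.0567 and 0.0714) and with no replicate block (0.11). SPRY1, an inhibitor of receptor tyrosine kinase signalling, had 22.6, 53.3 and 25.9 CPM in iEF and 13.1, 14.2 and 18.2 CPM in DAF (log2 -1.13, adjusted p = 0.00597, and 0.058 without DAF replicate 2). LOX, an enzyme that cross-links collagen, had 405, 266 and 422 CPM in iEF and 244, 153 and 173 CPM in DAF, with no overlap, yet did not pass the test (log2 -0.97 ± 0.32, adjusted p = 0.0679). It passed without replicate 3 of all conditions (0.000104), with no filter on low counts (6.35e-08) and in a fit of the 6 libraries alone (0.000304). TGFBR2, the type II receptor of TGF-beta, stood at 141, 139 and 193 CPM in DAF beside 136, 134 and 148 CPM in iEF (adjusted p = 0.573). IGFBP5 moved the other way, from 968, 977 and 553 CPM to 2170, 1640 and 1290 CPM (log2 1.05 ± 0.13, adjusted p = 0.000208), against 130 to 176 CPM in WT-EF. CDKN1A, the cell cycle inhibitor p21, rose from 89.9, 77.6 and 109 CPM to 124, 127 and 216 CPM (log2 0.72, adjusted p = 0.0059), and its adjusted p was 0.0627 with no replicate block.

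The 12 genes with the largest increase began with GABRA4 and SV2B. GABRA4, a GABA receptor subunit (chr4:46920917-46995598, minus strand), had 1, 0 and 3 counts in iEF and 0.457, 5.78 and 13.5 CPM in DAF. The ratio of summed counts, scaled to library size, was 168 with an exact 95% interval of 65.4 to 619, which covers counting error only. The same ratio was 80.9 (31.3 to 299) for SERPINB13, 52.9 (24 to 145) for ADGRA1 and 53.4 (24.3 to 147) for NSG2, each with 4 to 6 counts over the iEF libraries. SV2B, a synaptic vesicle glycoprotein (chr15:91643180-91845795, plus strand), had 0.0788, 0.27 and 0.0873 CPM in iEF and 1.83, 15.9 and 19.4 CPM in DAF (log2 6.25 ± 0.68, adjusted p = 6.67e-05). GRIA2, an AMPA-type glutamate receptor subunit (chr4:158125334-158308298, plus strand), rose from 0.184, 0.169 and 0.262 CPM to 4.89, 12.5 and 9.93 CPM (log2 5.35 ± 0.46, adjusted p = 1.25e-05). RIMBP2, a protein of the presynaptic active zone, rose from 0.105, 0.135 and 0.116 CPM to 1.41, 4.67 and 4.36 CPM (log2 4.74 ± 0.35, adjusted p = 5.38e-06). The others were SERPINB13, ADGRA1, GIMAP6, NSG2, PKHD1, ISM2, MMP9 and MAP7D2. MMP9, a gelatinase that degrades basement membrane, also differed widely between libraries, with 11, 35.3 and 135 CPM in DAF against 0.683, 1.18 and 2.94 CPM in iEF. In every one of the 12, DAF replicate 1 was the lowest of the DAF libraries and still lay above all iEF libraries. The rule that chose them, with the same direction in all 3 sets, favours such a gap. The groups did not overlap in 1342 of the 1440 raised genes and in 7766 of all 28793 genes tested.

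These 12 were chosen for their DAF values, so their position against the other constructs is given as a description. Against Δ22, 11 were higher in DAF, MMP9 being the exception (adjusted p = 0.112). Against WT-EF, 8 were higher in DAF and none was lower: GRIA2 had 0.72, 1.74 and 1.04 CPM in WT-EF (log2 2.95, adjusted p = 4.3e-05), GABRA4 0.194, 0.291 and 0.479 CPM (adjusted p = 0.000391) and PKHD1, the fibrocystin gene, 1.41, 1.14 and 1.97 CPM beside 1.41, 9.07 and 12.7 CPM in DAF (log2 2.18, adjusted p = 0.00829). SV2B and MAP7D2 did not pass that test (adjusted p = 0.2 and 0.943).

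**Figure D3:**
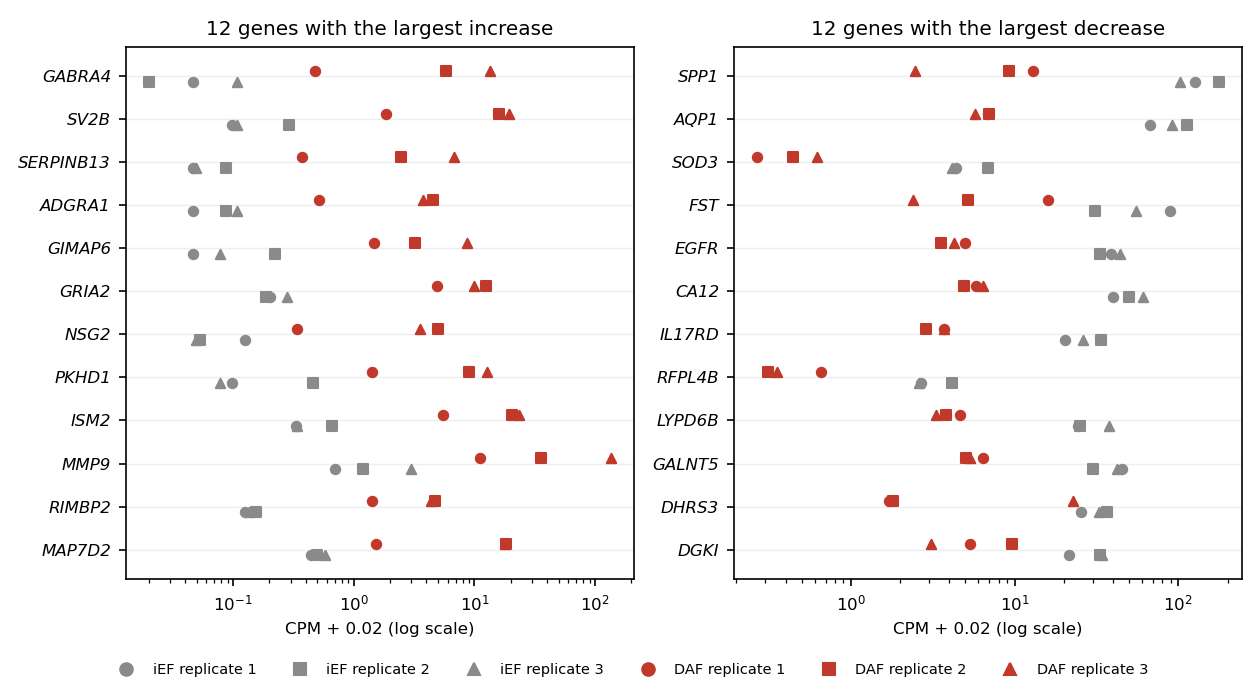
CPM with 0.02 added (log axis) of the 12 genes that rose most and the 12 that fell most in DAF against iEF, 1 point per library, grey for iEF and red for DAF, with a marker shape for each replicate. Circles of DAF replicate 1 lie to the left of the other DAF points in the increased genes, and the DAF replicate 3 point of DHRS3 (22.8 CPM) lies beside its iEF points.

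The 12 genes with the largest decrease began with SPP1 and AQP1. SPP1, the matrix protein osteopontin (chr4:88896819-88904684, plus strand), fell from 126, 177 and 102 CPM in iEF to 12.9, 9.21 and 2.45 CPM in DAF (log2 -4.31 ± 0.36, adjusted p = 1.06e-05). AQP1, a water channel (chr7:30951468-30965132, plus strand), fell from 67.2, 113 and 91 CPM to 6.82, 6.91 and 5.7 CPM (log2 -3.81 ± 0.30, adjusted p = 7.67e-06). EGFR, the epidermal growth factor receptor (chr7:55086710-55279321, plus strand), fell from 38.8, 33.2 and 44.3 CPM to 4.96, 3.53 and 4.26 CPM (log2 -3.21 ± 0.27, adjusted p = 1.07e-05). The groups did not overlap in 1716 of the 1783 lowered genes and in 7766 of all 28793 genes tested. In SPP1, AQP1 and EGFR the 3 DAF libraries lay far below all iEF libraries, a gap that the rule favours. Others were GALNT5, which starts mucin-type glycans (log2 -2.81), CA12, a membrane carbonic anhydrase (log2 -3.15), FST, the activin antagonist follistatin (log2 -3.22), and SOD3, the extracellular superoxide dismutase (log2 -3.61). IL17RD, a feedback inhibitor of FGF signalling, fell from 20.4, 33.5 and 26.3 CPM to 3.66, 2.85 and 3.66 CPM and was lower in DAF than in WT-EF (log2 -1.50, adjusted p = 0.0003). LYPD6B, RFPL4B and DGKI were among the 12 too. DHRS3, a retinal reductase, completed the 12. Its DAF libraries had 1.69, 1.79 and 22.8 CPM, and its call (adjusted p = 0.0251) was lost without DAF replicate 1 or 2 (0.119 and 0.146), without iEF replicate 1 or 2 (0.096 and 0.0978) and with no replicate block (0.264). Against Δ22, 5 of the 12 were lower in DAF: SPP1 (53.9, 43.2 and 16.9 CPM in Δ22), AQP1, EGFR, CA12 and GALNT5. Against WT-EF, 5 were higher in DAF (SPP1, FST, EGFR, GALNT5 and DGKI) and IL17RD was the 1 lower. The genes were chosen on the same DAF libraries, so these counts are a description too.

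Ion channel and synaptic genes were counted over lists rather than by size. Their shares stand beside 5.00% higher and 6.19% lower over all genes tested. Of 33 voltage-gated sodium and calcium channel genes tested, 9 were higher (27.3%) and 2 lower (6.06%) in DAF. SCN3B, a sodium channel beta subunit, rose from 0.394, 0.236 and 0.291 CPM to 1.48, 2.4 and 2.85 CPM (log2 2.85 ± 0.35, adjusted p = 0.000172), and the T-type calcium channel CACNA1I, with 2, 2 and 3 counts in iEF, had a summed count ratio of 8.95 (exact 95% interval 4.08 to 23.2). SCN2A (log2 -1.51) and CACNG4 (log2 -1.6) were the 2 that fell. Of 52 ligand-gated channel genes, 8 were higher (15.4%) and none lower, with GRIK2, a kainate receptor subunit, at 15.6, 28.8 and 17.1 CPM in iEF and 42.7, 95.3 and 102 CPM in DAF (log2 1.92 ± 0.24, adjusted p = 0.000177). Of 79 potassium channel genes, 13 were higher (16.5%) and 5 lower (6.33%): KCNN1, a calcium-activated channel of small conductance, rose by 2.36 ± 0.34, KCNE4 by 1.51 ± 0.22 and KCNMB2 by 2.63 ± 0.38, whereas KCNMA1, the pore of the large conductance channel, fell from 130, 95.2 and 113 CPM to 57.6, 30 and 35.1 CPM (log2 -1.51, adjusted p = 0.000392). Of 42 synaptic vesicle and adhesion genes, 9 were higher (21.4%) and none lower. The lower shares of the sodium, calcium and potassium channels were near that of all genes. SYT1, a calcium sensor of vesicle release, rose from 70.7, 89 and 76.1 CPM to 155, 208 and 225 CPM (log2 1.31 ± 0.11, adjusted p = 1.22e-05) and differed from WT-EF by 0.00 (adjusted p = 0.993), and DLG2, a postsynaptic scaffold, rose by 2.72 ± 0.27 but stayed below WT-EF (log2 -1.80, adjusted p = 0.000135). Median log2 fold changes were 0.65 for the sodium and calcium, 0.44 for the ligand-gated, 0.26 for the potassium and 0.28 for the synaptic list, beside 0.0 over all genes tested, and most members of each list did not pass the test. The ligand-gated count was 4 without DAF replicate 2 or iEF replicate 3 and 5 without DAF replicate 3 or iEF replicate 1. The sodium and calcium count was 5 without DAF replicate 3, and the potassium count was 8 higher without DAF replicate 2, DAF replicate 3 or iEF replicate 3, and 3 lower without DAF replicate 1 or 2. With no replicate block, 4 ligand-gated genes were higher and 2 potassium channel genes lower. Against the same iEF libraries, Δ22 had medians of 0.3, 0.27, 0.3 and 0.16 for the sodium and calcium, ligand-gated, potassium and synaptic lists. In the direct test over all libraries, 2, 3, 2 and 4 members were higher in DAF than in Δ22, beside 0.948% of all genes. The 1 lower was a potassium channel gene, beside 0.379% of all genes.

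Of 297 solute carriers, 31 were higher (10.4%, beside 5.00% of all genes) and 21 lower (7.07%, near the 6.19% of all genes), with SLC15A2, a peptide transporter, up by 3.72 ± 0.36, SLC24A3, a sodium/calcium exchanger, by 1.91 ± 0.16 and SLC2A3, a glucose transporter, by 0.96 ± 0.12. Higher solute carriers numbered 16 to 19 without DAF replicate 2 or 3 or iEF replicate 1 or 3, lower ones 6 to 13 without any 1 of the 6 libraries and 11 with no replicate block. Of 68 axon guidance genes, 10 were higher (14.7%) and 8 lower (11.8%). ROBO2, a receptor for Slit proteins, had 17.6, 21.6 and 16.2 CPM in iEF and 78.3, 129 and 80.3 CPM in DAF (log2 2.35 ± 0.14, adjusted p = 1.94e-06), and EFNA5, an ephrin, fell from 35.5, 34.4 and 34.1 CPM to 13.2, 8.39 and 12.8 CPM (log2 -1.61, adjusted p = 0.000513). Of 80 cadherins and protocadherins, 11 were higher (13.8%), PCDH7 and PCDH11X among them, and 7 were lower (8.75%), including CDH13 (235, 231 and 245 CPM in iEF, 103, 72.4 and 65 CPM in DAF). Lower guidance genes numbered 3 to 5 without any 1 library and 4 with no replicate block. Cadherins numbered 6 higher without DAF replicate 2, and 2 to 4 lower without DAF replicate 1, 2 or 3 or iEF replicate 1 or 3.

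Of 42 integrins and laminins, 10 were lower (23.8%) and 3 higher (7.14%), with a median log2 fold change of -0.21. Of 44 collagens, 9 were lower (20.5%) and 3 higher (6.82%), with a median of 0.03. Over all genes tested 6.19% were lower and 5.00% higher. LAMA4, a laminin of vessel and muscle basement membranes, fell from 257, 284 and 235 CPM to 74.5, 38.4 and 70.1 CPM (log2 -2.17 ± 0.20, adjusted p = 2.49e-05). ITGA6, a laminin receptor subunit, fell from 671, 424 and 521 CPM to 323, 232 and 180 CPM (log2 -1.17 ± 0.16, adjusted p = 0.000322). COL9A3, a collagen IX chain, fell from 40.5, 60.9 and 37.3 CPM to 9.35, 9.44 and 9.83 CPM (log2 -2.27 ± 0.22, adjusted p = 2.92e-05), and COL6A3 (log2 -1.39) was lower too. In LAMA4, ITGA6 and COL9A3 every DAF library lay below every iEF library. A call from the same libraries favours such a gap. The groups did not overlap in 1716 of the 1783 genes lowered by DAF and in 7766 of all 28793 genes tested. LAMA4 was lowered further by WT-EF, to 10.5 to 15.3 CPM, and DAF was higher than WT-EF by 2.27 on the log2 scale (adjusted p = 4.61e-06). In that test 23 collagens were higher in DAF and 2 lower, beside 16.1% and 12.4% of all genes. Of the integrins and laminins 28 were higher and 3 lower. Between DAF and Δ22 no collagen passed the test, and 1 integrin or laminin was lower, beside 0.379% of all genes. The median log2 differences from Δ22 were -0.04 and -0.19. Against iEF, 6 collagens were lower without DAF replicate 2, DAF replicate 3 or iEF replicate 3. The count of lower integrins and laminins was between 7 and 9 without any 1 library. Higher collagens numbered 1 without DAF replicate 3 or iEF replicate 1. The lower integrin genes include ITGB3BP, which codes for a centromere protein. Of 41 metalloproteinases and their inhibitors, 5 were higher (12.2%) and 4 lower (9.76%), with ADAMTS4, an aggrecanase, up by 1.49 ± 0.20 and MMP2 at -0.93 ± 0.14. Those counts were 3 higher without any 1 library except DAF replicate 1, and 2 lower without DAF replicate 2 or iEF replicate 1 or 3. Of 23 smooth muscle and actin genes, 3 were lower (13%): CNN1, CNN2 and MYOCD. Of 24 YAP/TEAD target genes, 5 were lower (20.8%) and 2 higher (8.33%). But no more than 3 were lower and 1 higher without any 1 of the 6 libraries, and none in either direction with no replicate block.

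**Figure D4:**
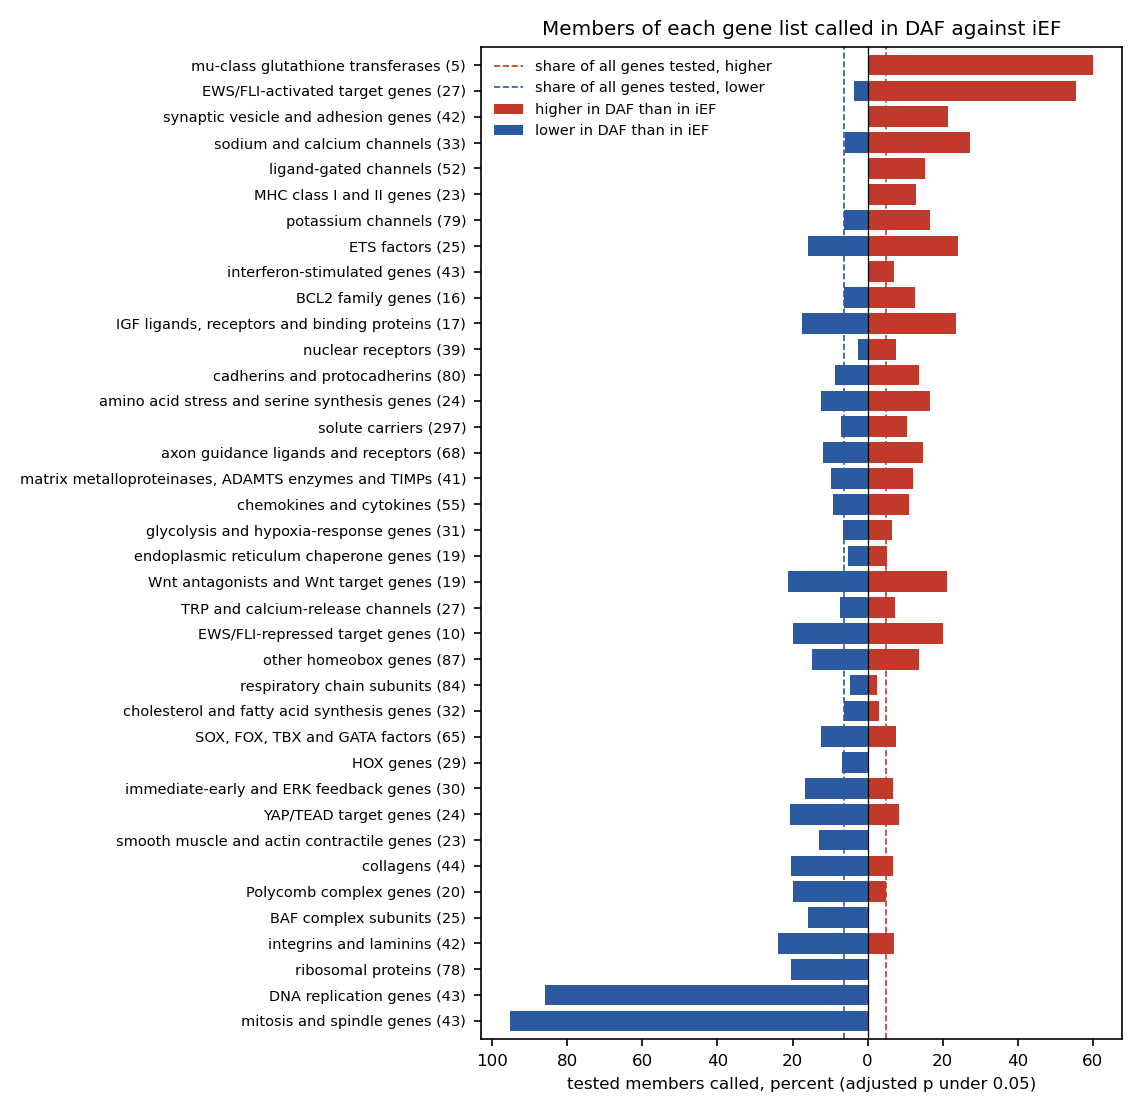
Percent of the tested members of each gene list (number in parentheses) that were higher (right, red) or lower (left, blue) in DAF than in iEF, with the shares over all genes tested as dashed lines (5.00% and 6.19%). The bars for mitosis and spindle genes (95.3%) and DNA replication genes (86%) reach farthest to the left, and those for mu-class glutathione transferases and EWS/FLI-activated target genes (55.6%) farthest to the right.

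DNA replication and mitosis genes fell together, each by a small amount. Of 43 DNA replication genes, 37 were lower in DAF than in iEF and none was higher in this test, a share of 86% beside 6.19% of all genes. Of 43 mitosis and spindle genes, 41 were lower (95.3%) and none higher. The median log2 fold changes were -0.50 and -0.60, and no member passed 2-fold. The summed level of the replication genes was 5627, 4960 and 5934 CPM in iEF and 3869, 3853 and 3771 CPM in DAF, and that of the mitosis genes 11436, 9707 and 11928 CPM in iEF and 8080, 8104 and 6462 CPM in DAF. The groups did not overlap in either sum. MCM6, a subunit of the replicative helicase, fell from 109, 109 and 115 CPM to 61.3, 63.3 and 72.7 CPM (log2 -0.76 ± 0.09, adjusted p = 0.00013). GINS2, which loads with that helicase, fell from 35.7, 32.8 and 39.6 CPM to 20.7, 18.5 and 19.7 CPM (log2 -0.88 ± 0.09, adjusted p = 4.95e-05). PCNA, the sliding clamp, fell from 283, 256 and 294 CPM to 173, 167 and 165 CPM (log2 -0.72 ± 0.09, adjusted p = 0.000149). AURKB, a kinase of the chromosomal passenger complex, fell from 63.2, 58.2 and 70.2 CPM to 39.3, 37.7 and 40 CPM (log2 -0.71 ± 0.09, adjusted p = 0.000276). MAD2L1 of the spindle checkpoint and PTTG1, the securin, each fell by 0.80 or 0.81. In bulk samples fewer cells in cycle and less RNA of these genes per cell cannot be told apart.

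The same genes were then read in the other constructs. Against the same iEF libraries, WT-EF raised 10 and lowered 2 of the 43 replication genes. Δ22 raised none of them and lowered 16, and iLuc raised 31 and lowered 2. Of the 43 mitosis genes, WT-EF raised none and lowered 16, Δ22 raised none and lowered 2, and iLuc raised 10 and lowered 5. Of all 28793 genes tested, WT-EF raised 3704 and lowered 4898, Δ22 136 and 239, and iLuc 5624 and 6368. In the direct test, 39 of 43 replication genes and 17 of 43 mitosis genes were lower in DAF than in WT-EF, beside 12.4% of all genes. None of either list was higher, beside 16.1% of all genes. Between DAF and Δ22 no gene of either list passed the test in the fit over all libraries, with median log2 differences of -0.11 and -0.15. In the 6 DAF and Δ22 libraries alone, 3 replication genes and 7 mitosis genes were lower in DAF and none was higher, beside 1333 and 1411 of all genes, and with no filter on low counts 0 and 1 were lower. MCM6 differed between DAF and Δ22 by -0.11 (adjusted p = 0.791), and AURKB by -0.33 (adjusted p = 0.132). Against iEF, 21 replication and 20 mitosis genes were lower without DAF replicate 3, 26 and 21 without iEF replicate 3, and 24 replication genes without iEF replicate 1. Without a replicate number in all conditions, 16, 20 and 25 replication genes and 19, 28 and 24 mitosis genes were lower (without replicate 1, 2 and 3). None was higher in any of these fits. The median log2 ratio of the mitosis genes was -0.55, -0.28 and -0.94 in sets 1, 2 and 3.

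**Figure D5:**
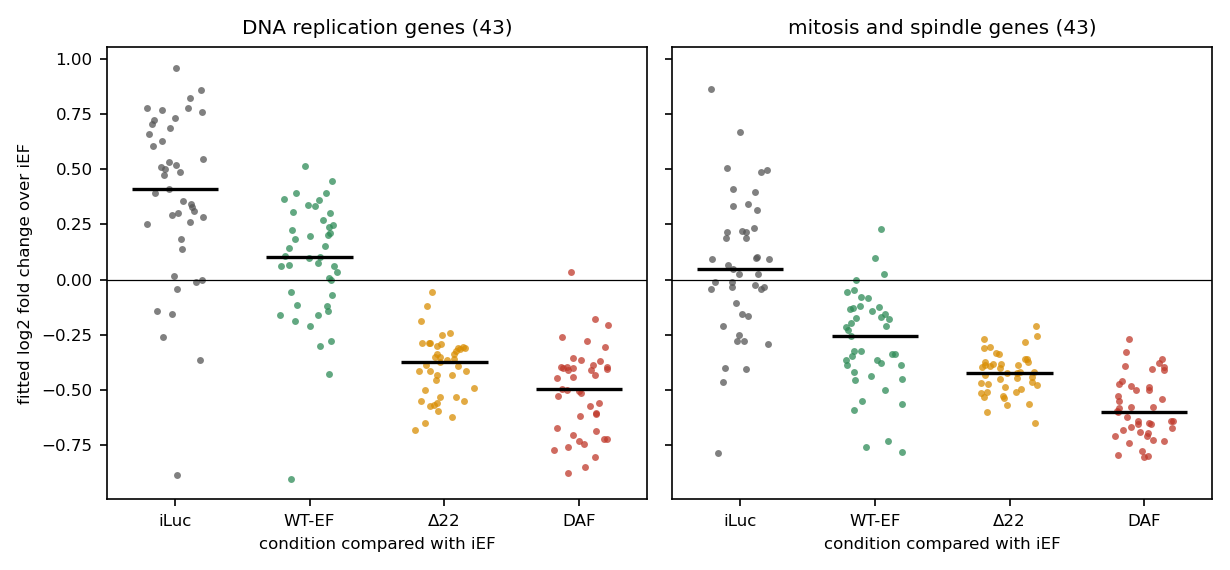
Fitted log2 fold change over iEF (y axis) of 43 DNA replication genes and 43 mitosis and spindle genes in iLuc, WT-EF, Δ22 and DAF, 1 point per gene, with horizontal bars at the medians. The DAF medians are -0.50 and -0.60 and the Δ22 medians -0.37 and -0.42, and the 4 conditions share the iEF libraries.

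Housekeeping and stress programs moved less than the replication and mitosis genes. Of 78 ribosomal protein genes tested, 16 were lower (20.5%) and none higher, beside 6.19% and 5.00% of all genes, with a median log2 fold change of -0.20. Only 1 to 4 were lower without any 1 of DAF replicates 1, 2 and 3 and iEF replicates 1 and 3, and 10 with no replicate block. Ribosomal genes have many near-identical copies, so their counts are uncertain. Their median log2 fold change was -0.19 in Δ22 against iEF. Of 84 respiratory chain subunits, 4 were lower (4.76%, and 0 to 2 genes without any 1 library) and 2 higher (2.38%), both under the shares of all genes. NDUFA4, a cytochrome oxidase subunit, rose from 50.6, 46.7 and 44.6 CPM to 68.7, 83 and 103 CPM (log2 0.83 ± 0.12, adjusted p = 0.000392), and above Δ22 by 0.93 (adjusted p = 0.000974). Of 24 amino acid stress and serine synthesis genes, 4 were higher (16.7%), among them SLC7A11, the cystine transporter, DDIT3 and TRIB3. Another 3 were lower (12.5%), among them SHMT1, and 1 was without DAF replicate 2 or iEF replicate 1, or with no replicate block. Cholesterol and fatty acid synthesis (1 higher and 2 lower of 32), glycolysis and hypoxia response (2 and 2 of 31), endoplasmic reticulum chaperones (1 and 1 of 19) and TRP and calcium-release channels (2 and 2 of 27) had few calls. Their shares in either direction, 3.12% to 7.41%, were near those of all genes. Leaving out any 1 of the 6 libraries moved at least 1 of these counts, which then lay between 0 and 4 genes.

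The lists of transcription factors and chromatin complexes stand beside the same shares of all genes, 5.00% higher and 6.19% lower. Of 25 ETS factors, which share the DNA-binding fold of FLI1, 6 were higher (24%), ETV3 among them and also FLI1, whose reads include the DAF cDNA. The number higher was 4 without DAF replicate 3 or iEF replicate 3. Another 4 were lower (16%), including ELK3 and ETV4 (7.28, 7.72 and 6.37 CPM in iEF, 2.42, 2.16 and 1.64 CPM in DAF, log2 -1.78 ± 0.25, adjusted p = 0.000392). Of 87 homeobox genes outside the HOX clusters, 12 were higher (13.8%) and 13 lower (14.9%). CUX2 rose by 2.94 ± 0.41, and IRX3 and SIX4 were lower (log2 -1.49 and -0.92). Homeobox genes numbered 7 higher without DAF replicate 2, and lower ones 6, 8 and 6 without DAF replicate 2, iEF replicate 1 and iEF replicate 2. Of 29 HOX genes, HOXB3 and HOXC10 were lower (6.9%) and none was higher. Of 65 SOX, FOX, TBX and GATA factors, 5 were higher (7.69%) and 8 lower (12.3%), with FOXP1 at 121, 108 and 126 CPM in iEF and 68, 66 and 64.7 CPM in DAF. Without any 1 library 4 or 5 of them were lower, 5 with no replicate block, and 3 were higher without DAF replicate 3. Of 39 nuclear receptors, 3 were higher (7.69%) and 1, NR2F6, was lower (2.56%; 2 lower without iEF replicate 3). Of 30 immediate-early and ERK feedback genes, 2 were higher, EGR2 and EGR4 (6.67%), and 5 lower (16.7%), of which IL17RD, ETV4, SPRY1 and SPRY4 are feedback regulators or targets of that pathway (3 lower without DAF replicate 2). Of 20 Polycomb genes, 4 were lower (20%), among them PHF19 and PHC1, and 1, JARID2, was higher (not without DAF or iEF replicate 3). The lower share of the HOX genes and the higher share of the nuclear receptors were near those of all genes, and their other shares were below. Of 25 BAF complex subunits, 4 were lower (16%) and none higher, and 1 or 2 were without DAF replicate 1, 2 or 3 or iEF replicate 1 or 3. PHF10 (log2 -0.62, adjusted p = 0.000728) kept its call without any 1 library.

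Shares here stand beside 5.00% higher and 6.19% lower over all genes tested. Of 17 genes of the IGF system, 4 were higher (23.5%): IGF1, IGFBP5, IRS2 and INSR. IRS2, an adaptor of the insulin and IGF1 receptors, had 32.6, 29.6 and 29.9 CPM in iEF and 61.6, 73.4 and 65.1 CPM in DAF (log2 1.11 ± 0.09, adjusted p = 9.88e-06). INSR, the insulin receptor, rose by 1.02 ± 0.16 on the log2 scale. Another 3, IGFBP1, IGFBP2 and IGFBP3, were lower (17.6%), and 1 was without DAF replicate 1 or 2 or with no replicate block. Of 19 Wnt antagonists and targets, 4 were higher and 4 lower (21.1% each). Those higher numbered 1 or 2 without DAF replicate 2 or 3 or iEF replicate 2 or 3, and 2 with no replicate block. APCDD1, a membrane Wnt inhibitor, rose from 21.4, 45 and 26.3 CPM to 108, 202 and 249 CPM (log2 2.58 ± 0.25, adjusted p = 2.83e-05), and DKK3 fell from 264, 263 and 269 CPM to 115, 98.2 and 115 CPM (log2 -1.28 ± 0.15, adjusted p = 0.000124). SFRP1, which binds Wnt proteins, was lower than in iEF (adjusted p = 0.000392), and lower than in Δ22 (log2 -1.82, adjusted p = 0.000337), whose libraries had 12.7, 9.88 and 13.7 CPM. Of 16 BCL2 family genes, 2 were higher (12.5%), BCL2A1 and HRK, and PMAIP1 was lower (6.25%, near the share of all genes). HRK was lost without any 1 of the 6 libraries other than DAF replicate 1, and PMAIP1 without DAF replicate 2 or iEF replicate 1.

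Interferon-stimulated and MHC genes went with replicate 3. Over all genes tested 5.00% were higher and 6.19% lower. Of 43 interferon-stimulated genes, 3 were higher in DAF (6.98%, near the share of all genes), IFITM2, SAMD9 and SAMD9L, and none was lower. Their summed level was 2441, 3927 and 2017 CPM in iEF and 2007, 2384 and 5677 CPM in DAF, so the DAF library was the lower of its set in replicates 1 and 2 and the higher in replicate 3. In Δ22 the sum was 1794, 2397 and 9558 CPM. Without replicate 3 of all conditions, 3 were higher and 23 lower, and without DAF replicate 1 or 3 or iEF replicate 1 or 3 none was higher. Without DAF replicate 2, 1 was higher. Of 23 MHC genes, 3 were higher (13%), HLA-DMB, HLA-DRB1 and HLA-E, and 1 was without DAF replicate 3, iEF replicate 1 or iEF replicate 3. HLA genes are close copies of each other, so their counts are uncertain. Of 55 chemokines and cytokines, 6 were higher (10.9%) and 5 lower (9.09%). None was higher without DAF replicate 3 or iEF replicate 3, 3 were without DAF replicate 2 or iEF replicate 1, and 1 with no replicate block. Lower ones numbered 1 to 3 without any 1 library and 3 with no replicate block.

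WT-EF against Δ22, a comparison that shares no library with DAF against iEF, was read for the genes DAF changed. Over all genes tested, 3760 (13.1%) were higher in WT-EF than in Δ22 and 4961 (17.2%) were lower. Of the 1440 genes raised by DAF, 36.7% were higher in WT-EF than in Δ22 and 21.6% were lower. Of the 1783 lowered by DAF, 36% were lower in WT-EF than in Δ22 and 23.1% were higher. The share of raised genes lay between 31.7% and 53.3% when replicates were left out, and that of lowered genes between 32.4% and 43.2%. In both classes the shares in either direction lay above those of all genes tested. Both classes also stood at higher levels, with medians of 5.31 (raised) and 40.1 CPM (lowered) in iEF beside 0.745 CPM over all genes. The part of expression level in these shares was not tested. IGFBP5 and CDKN1A, both raised by DAF, were among the genes lower in WT-EF than in Δ22 (log2 -3.37 and -1.52).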

How the data were processed

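RNA-seq of A673 cells was analysed as the authors deposited it: whole-number read counts per Ensembl gene, without normalization. The authors aligned paired reads of ScriptSeq total RNA libraries to hg19 with STAR (2.5.1b in the processing notes) and counted them with htseq-count in intersection-strict mode. A table of counts adjusted with ComBat and a table of the authors' own DESeq2 fold changes and p-values were not used, and neither were 3 count columns of other samples. Groups and replicate numbers came from the labels. Total counts ran from 28659475 to 41859880 per library. Replicates of a group differed by more than counting noise.

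Genes averaging at least 1 count per library (28793 of 57820) were tested with edgeR 4.0.16 in R 4.3.3: TMM scaling, 1 quasi-likelihood fit over all 15 libraries with group and replicate number, and Benjamini-Hochberg adjustment within each comparison, at 0.05. CPM are TMM-scaled. The replicate number was a block because the authors adjusted replicate sets for batch with ComBat. Deviations from the group means correlated with a median r of 0.186 between libraries of the same number (30 pairs) and -0.0842 otherwise (60 pairs), and with r between 0.0707 and 0.536 for the 3 DAF and iEF pairs. The 3 DAF and Δ22 pairs correlated at 0.747, 0.711 and 0.78. Counts of 4 lists in DAF against Δ22 under other fits were added after seeing the data. The code was tested on simulated data with known changes. Symbols and positions (GRCh37) matched 55538 identifiers. The 38 gene lists and the members were chosen with earlier results of these data known. Genes named are FLI1 and EWSR1, genes the study's text names, up to 4 called members with the smallest adjusted p of each list, and the 12 largest increases and 12 largest decreases past both cutoffs with at least 50 counts on average and the same direction in all 3 sets. A few genes the rule names are not reported here. The alternatives were DESeq2 1.42.0 (size factors, Wald test), other filters, no block, the 6 libraries alone, glmTreat and leaving out replicates.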

Additional observations from a re-analysis of the deposited data

How the results depend on the processing

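The DAF against iEF counts of raised and lowered genes stayed within 1.5 times of 1440 and 1783 under the size factors and the Wald test of DESeq2, no filter, filterByExpr, the 6 libraries alone and no replicate block. With no replicate block, 1074 were raised and 1305 lowered, and 19 named genes lost their call. Leaving out replicates gave 492 to 1329 raised and 576 to 1418 lowered, and past 2-fold 381 to 709 and 195 to 388. glmTreat against a 2-fold change called 178 and 46. DAF against WT-EF gave 3097 to 4434 higher and 2148 to 3496 lower without replicates. DAF against Δ22 moved most: in place of 273 higher and 109 lower it gave 469 and 308 with DESeq2's Wald test, 663 and 551 with no filter, 147 and 30 with no replicate block, 1411 and 1333 in the 6 libraries alone, and 75 to 321 and 9 to 186 without replicates, and the cause was not tested. The shares shared with WT-EF against Δ22 ran from 31.7% to 53.3% (raised) and 32.4% to 43.2% (lowered) without replicates, and the lowered share was 42.3% with no filter. FLI1 stayed called, at 0.71 to 0.80. Uncalled genes near 0 changed sign without passing the test when replicates were left out: NKX2-2 lay between -0.27 and 0.12, SOX2 between -0.28 and 0.20 and HOXD13 between -0.10 and 0.01. With 3 libraries a group, a p that misses the threshold does not show that values did not differ.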
